A study of Mus musculus with 4 samples.

Results

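The cytokine receptor genes Crlf2, Il7r, Ifnar1, Ifnar2, Ifngr1, Ifngr2, Il10rb and Il6st were followed across the cell classes of the mouse cortex and between genotypes. They were picked by symbol, and all 8 were found among the 32285 genes listed for each library. The set was chosen from earlier results of these data: Crlf2 and Ifnar2 entered it for their difference between genotypes, so that difference is described here without a test, and the other 6 genes are related receptor chains. The study prepared nuclei from the cortex of 5-month-old Setdb1-CK-cKO mice (KO) and Wildtype mice (WT), all listed as C57BL/6, with 2 animals per genotype and 1 droplet library of 3′ tags per animal. Setdb1 encodes an enzyme that methylates lysine 9 of histone H3, a mark of silent chromatin. The labels give Setdb1-CK-cKO as the whole genotype of the KO animals, without saying what CK stands for or which cells lose the gene.

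A cytokine receptor is built from several membrane chains, and a cell answers a cytokine only when it carries a full set. Crlf2 (the receptor chain for thymic stromal lymphopoietin, TSLP) works with Il7r, which also serves interleukin 7. Ifnar1 and Ifnar2 together bind the type I interferons, Ifngr1 and Ifngr2 bind interferon gamma, Il10rb is the shared second chain for interleukin 10, interleukin 22 and the lambda interferons, and Il6st (gp130) is the shared signalling chain of the interleukin 6 family. All pass the signal to Janus kinases and STAT transcription factors, and in brain microglia are a main carrier of these chains.

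The libraries held 11176 and 13268 nuclei from KO animals and 13882 and 13712 from WT animals after filtering, with 35792576 to 42836965 in each library of the unique molecular identifiers (UMIs) that count single captured RNA molecules. Of 52038 nuclei, 46493 fell into 10 classes named from marker genes (each name means nuclei with that marker pattern), and 9 of these had at least 30 nuclei in every library. Any 2 libraries shared 48 to 64 barcodes. Levels are in CPM, the usual depth-scaled unit, in which the UMIs of a gene over the nuclei of 1 class and library are scaled to all UMIs of those nuclei. Effects are log2 fold changes of KO over WT from edgeR's quasi-likelihood fit of such sums, with n = 2 animals in each genotype. The ± value is an approximate standard error, the absolute log2 fold change divided by the square root of the F statistic. Fewer nuclei with a transcript and less RNA per nucleus cannot be told apart in these effects. Over all nuclei Setdb1 stood at 69.6 and 65.8 CPM in KO libraries, against 68.9 and 64.5 CPM in WT libraries. The labels do not name the removed exons, so counts of 3′ tags do not check the deletion. The sex listed for the KO animals goes against their RNA: KO replicate 1, listed as female, had 0.95 CPM of Xist and 81.6 CPM of the Y-linked Uty, and KO replicate 2, listed as male, had 1379 and 0.0277 CPM. Both WT libraries matched their listed sex, with 1.75 and 1019 CPM of Xist. By RNA, same-numbered animals of the 2 genotypes therefore shared their sex, and each genotype held both sexes. Cytosolic ribosomal protein genes took 0.624% and 0.72% of UMIs in KO libraries, against 0.463% and 0.498% in WT libraries, and their part in the results below was not tested.

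Crlf2 and Ifnar2 lie on different chromosomes, and their promoters are shown because both genes were higher in KO libraries in each of the 6 large classes. Crlf2 (ENSMUSG00000033467) spans chr5:109554709-109558993 on the minus strand, and Ifnar2 (ENSMUSG00000022971) spans chr16:91372783-91405589 on the plus strand (GRCm38, annotation GENCODE vM21). The windows run from 250 bases before to 50 bases after the RefSeq start on GRCm38.p6, written 5′ to 3′ on the gene's own strand, with capitals marking GGGCGG or its reverse complement CCGCCC (the GC box), including overlapping matches.
Crlf2, chr5:109558944-109559243, minus strand: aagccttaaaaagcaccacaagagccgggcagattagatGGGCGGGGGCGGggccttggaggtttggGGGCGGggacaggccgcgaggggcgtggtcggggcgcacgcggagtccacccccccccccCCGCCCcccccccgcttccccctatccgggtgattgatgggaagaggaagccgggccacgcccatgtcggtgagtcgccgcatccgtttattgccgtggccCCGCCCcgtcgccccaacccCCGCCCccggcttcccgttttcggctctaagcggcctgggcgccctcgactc
Ifnar2, chr16:91372533-91372832, plus strand: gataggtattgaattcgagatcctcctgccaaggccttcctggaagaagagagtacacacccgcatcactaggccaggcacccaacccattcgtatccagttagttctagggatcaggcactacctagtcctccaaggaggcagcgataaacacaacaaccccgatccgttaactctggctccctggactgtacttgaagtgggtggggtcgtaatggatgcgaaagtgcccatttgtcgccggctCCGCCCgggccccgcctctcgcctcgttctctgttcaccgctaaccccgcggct
The Crlf2 window held 6 GC boxes and 31 CpG dinucleotides, and the Ifnar2 window held 1 GC box and 18 CpG dinucleotides. Of the 32851 promoter windows of this length in the table, 35.7% hold a GC box, and the median window has 7 CpG dinucleotides with 31 at the 90th percentile. The STAT motif TTCNNNGAA, searched on both strands, occurred 1 time in the Ifnar2 window and 0 times in the Crlf2 window, against 8.3% of all windows with a match. The Il7r and Ifnar1 windows also held 1 match each, and the Ifngr1, Ifngr2 and Il6st windows held 0. Windows were at hand for 7 of the 8 genes, and Il10rb is named only. Il7r had the lowest CpG count of the 7, at 1, and Il6st the highest, at 33. A match of letters is a description of the window and not a bound site.

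Crlf2 was higher in KO excitatory neurons. It stood at 42.2 and 45.8 CPM in KO libraries, against 11.4 and 13.8 CPM in WT libraries, which rest on 1070, 1155, 341 and 396 UMIs in the same order. The 2 genotypes did not overlap, and the log2 fold change was 1.78 ± 0.13, a 3.43-fold difference that took place 226 from the top among 19133 genes tested. This contrast is the one that chose the gene, and 4.66% of all genes tested there passed the threshold in either direction. The signal is thin per nucleus: 16.4% and 14.3% of KO excitatory nuclei carried a Crlf2 UMI (exact 95% intervals 15.5% to 17.4% and 13.5% to 15.1%, counting error only), against 4.84% and 5.21% of WT nuclei (4.34% to 5.37% and 4.71% to 5.74%). Most of these nuclei held a single UMI, namely 849 of 956 and 922 of 1034 in KO libraries and 318 of 329 and 362 of 379 in WT libraries. After each nucleus was thinned to 1000 UMIs, the shares were 4.14% and 4.51% in KO libraries and 1.14% and 1.27% in WT libraries.

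The other large classes showed the same order of genotypes for Crlf2. In inhibitory neurons the level was 40.5 and 45.7 CPM in KO libraries and 13.97 and 22.2 CPM in WT libraries, a log2 fold change of 1.23 ± 0.20. In oligodendrocytes, the myelinating glia, it was 54.8 and 64.8 CPM in KO libraries and 14.9 and 16.3 CPM in WT libraries (1.95 ± 0.21). In astrocytes it was 43.3 and 56.9 CPM in KO libraries and 14.5 and 14.8 CPM in WT libraries (1.77 ± 0.26). KO and WT libraries did not overlap in any of these classes. The share of all genes with such separation was not counted in any class, so this is a description.

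Astrocytes were made up of clusters 13 and 30, and cluster 30 held 190 and 305 KO nuclei but only 1 and 0 WT nuclei. In cluster 13 alone the Crlf2 difference was 1.61 ± 0.27. In microglia, the resident immune cells of the brain, Crlf2 had 82.6 and 82.0 CPM in KO libraries and 17.99 and 6.05 CPM in WT libraries, a log2 fold change of 2.76 ± 0.39. The WT microglia values rest on 9 and 3 UMIs, and the log2 fold change is 3.71 without WT replicate 1 and 2.02 with only nuclei of at least 1000 UMIs. The smallest difference was in oligodendrocyte precursors, with 26.0 and 29.9 CPM in KO libraries and 22.4 and 15.9 CPM in WT libraries (0.55 ± 0.38).

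**Figure D1:**
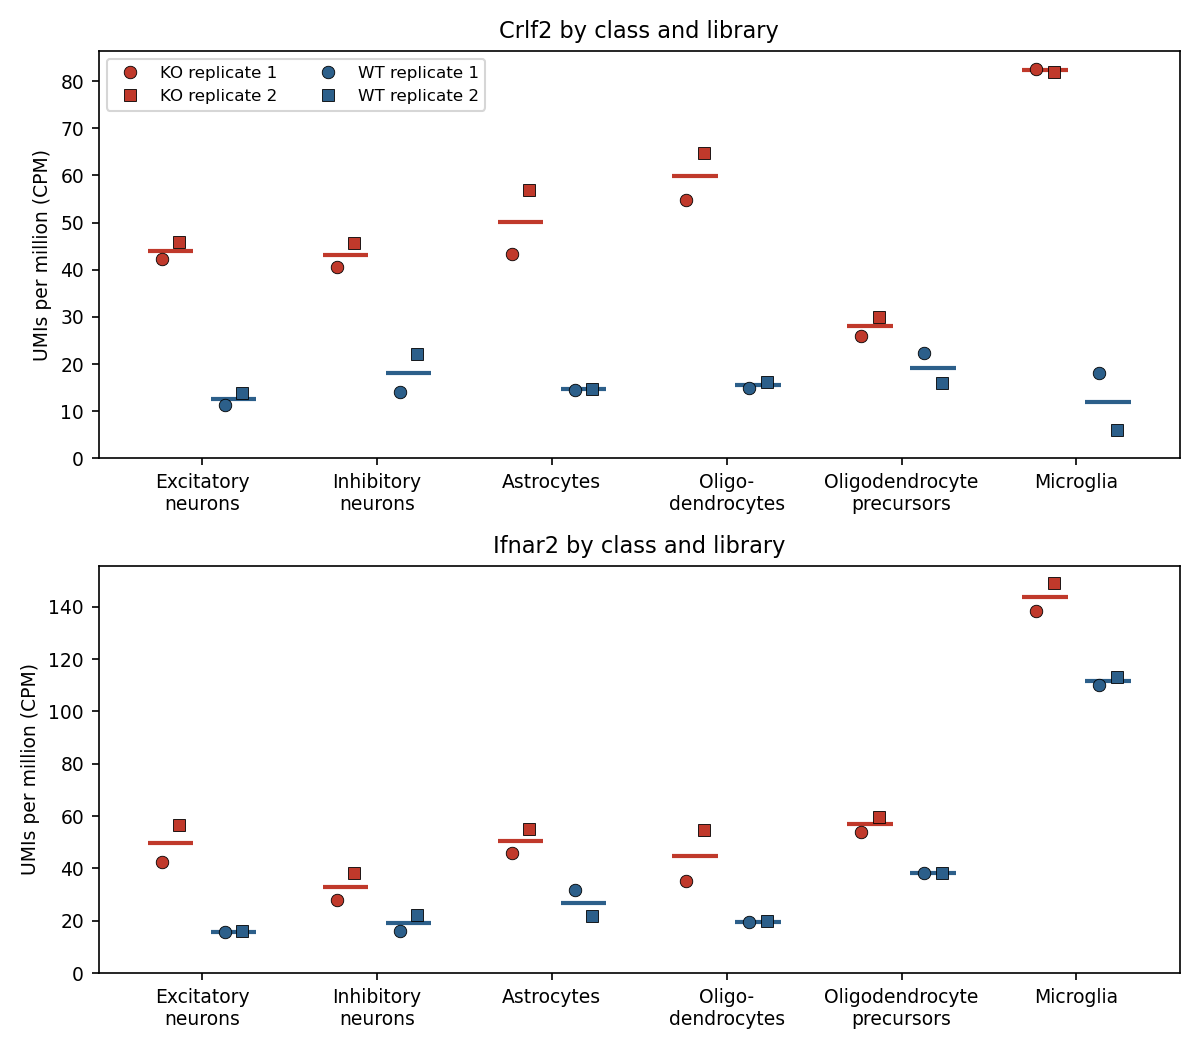
Crlf2 (top) and Ifnar2 (bottom) in CPM for each library and class, KO left of WT, with circles for replicate 1, squares for replicate 2 and a bar at the mean of the 2 libraries. KO points lie above WT points in all 6 classes for both genes, with the Ifnar2 gap relatively smallest in microglia (138 and 149 against 110 and 113 CPM). The share of all genes with such separation was not counted.

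Ifnar2, the chain that carries most of the binding to type I interferons, had its largest estimate in excitatory neurons. It stood at 42.6 and 56.8 CPM in KO libraries, against 15.6 and 16.2 CPM in WT libraries, from 1078, 1432, 466 and 464 UMIs. Every KO value lay above every WT value, and the log2 fold change was 1.62 ± 0.15, or 3.07-fold. KO excitatory nuclei with 2 or more Ifnar2 UMIs numbered 166 of 5819 and 242 of 7236, against 35 of 6802 and 36 of 7281 WT nuclei.

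The estimated Ifnar2 difference was smaller in the other classes. In inhibitory neurons the level was 28.0 and 38.1 CPM in KO libraries and 15.9 and 22.2 CPM in WT libraries, a log2 fold change of 0.78 ± 0.20. In microglia it was 138 and 149 CPM in KO libraries and 110 and 113 CPM in WT libraries (0.38 ± 0.20). The genotypes stayed apart in both classes, but the WT microglia level was already above the KO level of excitatory neurons. Astrocytes had a log2 fold change of 0.90 ± 0.25, oligodendrocytes 1.19 ± 0.25 and oligodendrocyte precursors 0.57 ± 0.29. In endothelial cells, with 31 to 43 nuclei per library, Ifnar2 had 108 and 138 CPM in KO libraries and 178 and 107 CPM in WT libraries, which overlap. Fitted together with a library term, the Ifnar2 effect differed from that in excitatory neurons by -0.87 ± 0.17 in inhibitory neurons and by -1.23 ± 0.22 in microglia. For Crlf2 the same differences were -0.57 ± 0.17 and 1.01 ± 0.44. These values are given without a test, since the effect in excitatory neurons chose both genes.

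Within the excitatory neurons, both genes were higher in KO libraries in 11 of 11 clusters large enough to be fitted. In each of these the KO values lay above the WT values. These clusters are parts of the excitatory sums whose contrast chose both genes, and they come from the same animals. The count is therefore a description, the clusters are not replicates, and the share of all genes with such separation was not counted. The Crlf2 log2 fold change ran from 1.48 to 2.33 with a median of 1.80. The Ifnar2 log2 fold change had a wider range, from 0.74 to 2.09 with a median of 1.63. It was widest in cluster 0, which has the marker pattern of layer 6 corticothalamic neurons, with 63.5 and 86.8 CPM in KO libraries against 16.5 and 18.7 CPM in WT libraries. It was narrowest in cluster 5, led by Ndst4, with 31.1 and 34.2 CPM in KO libraries against 21.4 and 17.6 CPM in WT libraries. Cluster 5 also held more KO nuclei (837 and 1222) than WT nuclei (592 and 825). Crlf2 in cluster 5 stood at 40.05 and 40.5 CPM in KO libraries and 11.98 and 13.9 CPM in WT libraries, a log2 fold change of 1.62 ± 0.18 against 0.74 ± 0.19 for Ifnar2 in the same nuclei.

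Among the inhibitory clusters the order of the 2 genes varied. In cluster 23, with the marker pattern of somatostatin (Sst) interneurons, Ifnar2 had 41.6 and 52.7 CPM in KO libraries and 13.5 and 20.6 CPM in WT libraries, a log2 fold change of 1.44 ± 0.28. Crlf2 there had 42.6 and 39.8 CPM in KO libraries and 16.9 and 19.7 CPM in WT libraries (1.14 ± 0.27). In cluster 7, with the pattern of parvalbumin (Pvalb) interneurons, it had 21.1 and 30.3 CPM in KO libraries and 16.5 and 22.7 CPM in WT libraries (0.39 ± 0.28), and the genotypes overlapped. Crlf2 in cluster 7 had 32.9 and 47.5 CPM in KO libraries and 13.6 and 25.7 CPM in WT libraries (1.04 ± 0.28). In cluster 6, led by Adarb2, the Ifnar2 change was 0.55 ± 0.29 while the Crlf2 change was 1.55 ± 0.27. Differences between clusters were not tested.

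No partner chain passed the test between genotypes. None of the other 6 receptor genes passed an adjusted p of 0.05 (edgeR, Benjamini-Hochberg over all genes tested in the class) in any of the 6 large classes. All 6 were tested in excitatory neurons, where 4.66% of all genes passed, and in microglia, where 0.122% passed. In inhibitory neurons 4 of the 6 were tested (1.24% of all genes passed), in astrocytes 3 (0.345%), in oligodendrocytes 4 (0.51%) and in oligodendrocyte precursors 1 (0.0218%). The rest had too few UMIs there. Of these 24 tests, 0 had an unadjusted p under 0.05 in edgeR, and 0 of the 14 to which DESeq2 gave an adjusted p passed there. The smallest adjusted p was 0.31 in excitatory neurons, for Il6st, and 0.42 in microglia, for Il10rb.

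Ifnar1, the partner of Ifnar2 in the type I interferon receptor, had 12.1 and 10.5 CPM in KO excitatory neurons, against 13.1 and 12.9 CPM in WT. Both KO values were below both WT values, with a log2 fold change of -0.23 ± 0.13 and an adjusted p of 0.33. In microglia Ifnar1 stood at 24.8 and 27.95 CPM in KO libraries and 32.0 and 20.2 CPM in WT libraries, which overlap. UMIs of both interferon receptor chains were seen together in 40 of 5819 and 40 of 7236 KO excitatory nuclei, and in 29 of 6802 and 26 of 7281 WT nuclei. These counts depend on depth, and a nucleus without a UMI may still carry the transcript.

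Il7r, the chain that completes the TSLP receptor with Crlf2, was read mainly in microglia. It had 45.4 and 28.0 CPM in KO microglia and 36.0 and 18.2 CPM in WT microglia, which overlap (log2 fold change 0.43 ± 0.40, adjusted p = 0.76). In excitatory neurons it had 0.632 and 0.714 CPM in KO libraries and 0.567 and 0.419 CPM in WT libraries, at most 18 UMIs in a library (0.41 ± 0.37, adjusted p = 0.56). It had 0 UMIs in astrocytes of all 4 libraries, where 3 UMIs would be 1.74 to 2.82 CPM, and 0 UMIs in oligodendrocyte precursors, where 3 UMIs would be 4.78 to 5.58 CPM. Nuclei with both a Crlf2 and an Il7r UMI numbered 3 of 521 and 1 of 647 in KO microglia, and 0 of 551 and 0 of 579 in WT microglia.

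The interferon gamma receptor chains were both highest in microglia. Ifngr1, which binds the ligand, had 90.9 and 59.6 CPM in KO microglia and 58.0 and 48.4 CPM in WT microglia. The KO values lay above the WT values by a small margin, with a log2 fold change of 0.49 ± 0.28 and an adjusted p of 0.52. In excitatory neurons Ifngr1 was at 2.65 and 2.78 CPM in KO libraries and 3.14 and 2.90 CPM in WT libraries (-0.18 ± 0.19, adjusted p = 0.63). Ifngr2, the signalling chain, had 84.7 and 104 CPM in KO microglia and 110 and 92.8 CPM in WT microglia, which overlap. In excitatory neurons it had 13.4 and 12.4 CPM in KO libraries and 13.8 and 14.6 CPM in WT libraries (-0.16 ± 0.12, adjusted p = 0.48).

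The 2 shared chains were also microglial. Il10rb had 53.7 and 61.5 CPM in KO microglia and 42.0 and 32.3 CPM in WT microglia. The genotypes did not overlap, but the log2 fold change of 0.64 ± 0.31 had an adjusted p of 0.42. In excitatory neurons Il10rb rested on 21 to 39 UMIs per library, at 0.829 and 0.912 CPM in KO libraries and 0.835 and 1.36 CPM in WT libraries (-0.36 ± 0.33, adjusted p = 0.58). Il6st had 10.4 and 10.7 CPM in KO excitatory neurons and 13.4 and 11.4 CPM in WT excitatory neurons, with a log2 fold change of -0.26 ± 0.13 and an adjusted p of 0.31. It had a negative estimate in 6 of 6 classes, from -0.28 to -0.01, none of which passed. In microglia it stood at 68.2 and 110 CPM in KO libraries and 93.9 and 115 CPM in WT libraries.

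**Figure D2:**
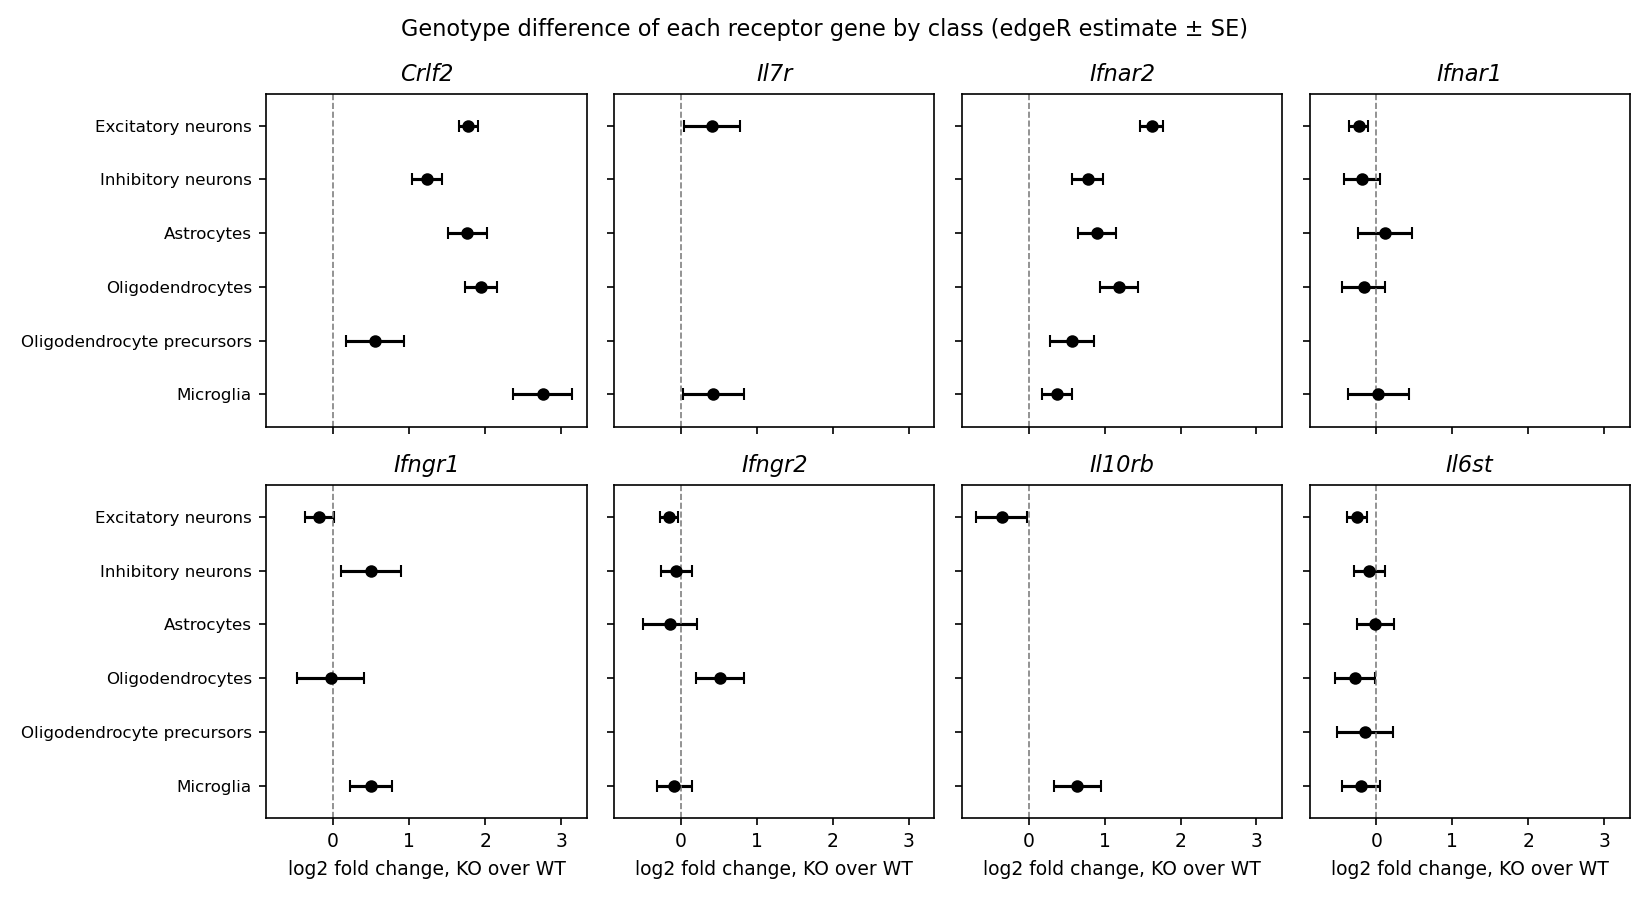
Log2 fold change of KO over WT (x axis) with its standard error for each receptor gene (panels) in 6 classes (rows), n = 2 libraries per genotype; a missing point means too few UMIs to fit. Crlf2 and Ifnar2 lie right of 0 in every class, and the estimates of the other genes lie between -0.36 and 0.64.

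Whether the genotype effect of these 6 genes differed between classes was tested as a genotype by class term against excitatory neurons. None passed in inhibitory neurons (5 tested; 0.728% of all genes passed), astrocytes (5; 0.12%), oligodendrocytes (6; 0.994%), oligodendrocyte precursors (5; 0.167%) or microglia (6; 0.166%). The smallest adjusted p was 0.61 (edgeR), for Ifngr2 in oligodendrocytes.

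The order of the classes by WT level differed from gene to gene. Il7r, Ifngr1, Ifngr2, Il10rb and Il6st were highest in microglia, and in each case both WT microglia values lay above both WT values of the next class. On the log2 scale WT microglia stood above WT excitatory neurons by 5.78 for Il7r, 5.08 for Il10rb, 4.14 for Ifngr1, 3.08 for Il6st and 2.84 for Ifngr2. The Il7r difference is 4.85 when taken from the share of nuclei with a UMI after thinning to 1000 UMIs. The next classes after microglia were fibroblasts for Ifngr2, Il10rb and Il6st and endothelial cells for Ifngr1. For Il7r it was oligodendrocytes, with 2 WT UMIs. For these genes the fibroblast, endothelial and mural values rest on at most 17 WT UMIs each, and neighbours among these classes overlapped.

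Ifnar1 and Ifnar2 were highest in endothelial cells, which line the vessels. WT endothelial cells had 148 and 64.2 CPM of Ifnar1 from 13 UMIs and 178 and 107 CPM of Ifnar2 from 17 UMIs. Ifnar2 in WT microglia (110 and 113 CPM) overlapped with this, and stood 2.81 log2 units above WT excitatory neurons, the lowest class. WT fibroblasts followed with 65.8 and 97.8 CPM, then mural cells, oligodendrocyte precursors with 38.4 and 38.3 CPM and astrocytes with 31.8 and 21.9 CPM. Ifnar1 in WT microglia (32.0 and 20.2 CPM) lay below endothelial cells and overlapped with fibroblasts.

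Crlf2 had no such order in WT libraries. The class means ran from 12.02 CPM in microglia to 33.0 CPM in endothelial cells, and all neighbours in the order overlapped except oligodendrocytes over astrocytes and astrocytes over excitatory neurons (14.6 against 12.6 CPM). The endothelial value comes from 4 UMIs.

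**Figure D3:**
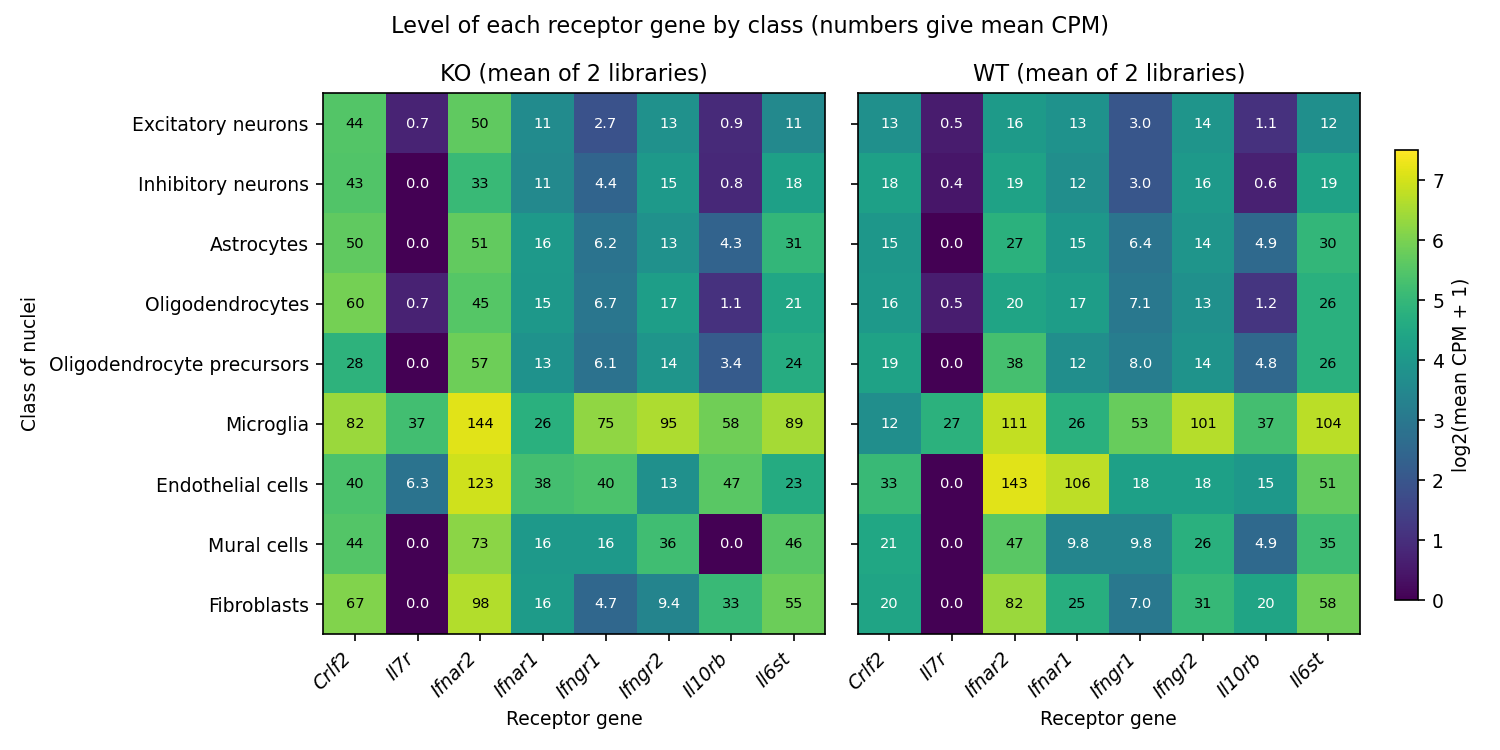
Mean CPM of each receptor gene (columns) in 9 classes (rows) for KO (left) and WT (right), coloured by log2(mean CPM + 1) with the mean printed in each field. Columns are to be read downwards, since 3′ tag counts of different genes are not compared; the microglia row is the highest of the larger classes for every gene in KO and for every gene but Crlf2 in WT.

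RNA freed from broken nuclei is captured in every droplet, so a level outside excitatory neurons was set beside genes of excitatory neurons in the same libraries. Slc17a7 (a vesicular glutamate transporter) and Nrgn (neurogranin) had CPM in microglia 1.26 and 1.40 times and 2.96 and 2.77 times those of excitatory neurons in KO libraries, and 1.52 and 1.74 times and 3.07 and 2.84 times in WT libraries. Another excitatory marker, Sv2b (a synaptic vesicle protein), had 0.313 and 0.341 times in KO and 0.328 and 0.304 times in WT. Slc17a7 UMIs were found in 23.8% and 26.7% of KO microglia and 26.1% and 32.1% of WT microglia, at median depths of 759 to 882 UMIs, against 3151 to 4045 UMIs in excitatory neurons, where 59.2% to 64.4% of nuclei had one.

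Crlf2 lay within the wide spread of these 3 marker genes in KO glia. Its KO level relative to excitatory neurons was 1.96 and 1.79 in microglia, 1.30 and 1.42 in oligodendrocytes and 1.02 and 1.24 in astrocytes. In oligodendrocytes Slc17a7 had 1.11 and 1.31 and Nrgn 2.54 and 2.55, and in astrocytes Slc17a7 had 0.742 and 1.01 and Nrgn 1.78 and 1.66, all in KO libraries. In KO oligodendrocyte precursors Crlf2 had 0.616 and 0.653, below Slc17a7 at 0.849 and 0.864. In KO microglia Crlf2 was above Slc17a7 and Sv2b and below Nrgn. From these ratios expression of Crlf2 by glia and captured free RNA cannot be told apart. In KO inhibitory neurons Crlf2 had 0.958 and 0.998, above Slc17a7 (0.435 and 0.482), Sv2b (0.155 and 0.187) and Nrgn (0.88 and 0.952).

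Ifnar2 gave another picture in microglia. Its level relative to excitatory neurons was 7.07 and 6.98 in WT libraries, above all 3 marker genes, and 3.25 and 2.63 in KO libraries, where the excitatory level itself was higher. In KO libraries that was above Nrgn in replicate 1 (2.96) and below it in replicate 2 (2.77). In KO oligodendrocytes Ifnar2 had 0.827 and 0.961, below Slc17a7, and in KO inhibitory neurons 0.659 and 0.672, between Slc17a7 and Nrgn. Il7r (71.9 and 39.2 in KO, 63.4 and 43.4 in WT), Il10rb (64.8 and 67.4 in KO, 50.3 and 23.7 in WT), Ifngr1 (34.4 and 21.5 in KO, 18.5 and 16.7 in WT), Ifngr2 and Il6st lay well above the band in microglia, with lowest values of 6.31 and 6.54 for the last pair. Ifnar1 in microglia, at 2.05 and 2.67 in KO and 2.44 and 1.56 in WT libraries, lay inside it.

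**Figure D4:**
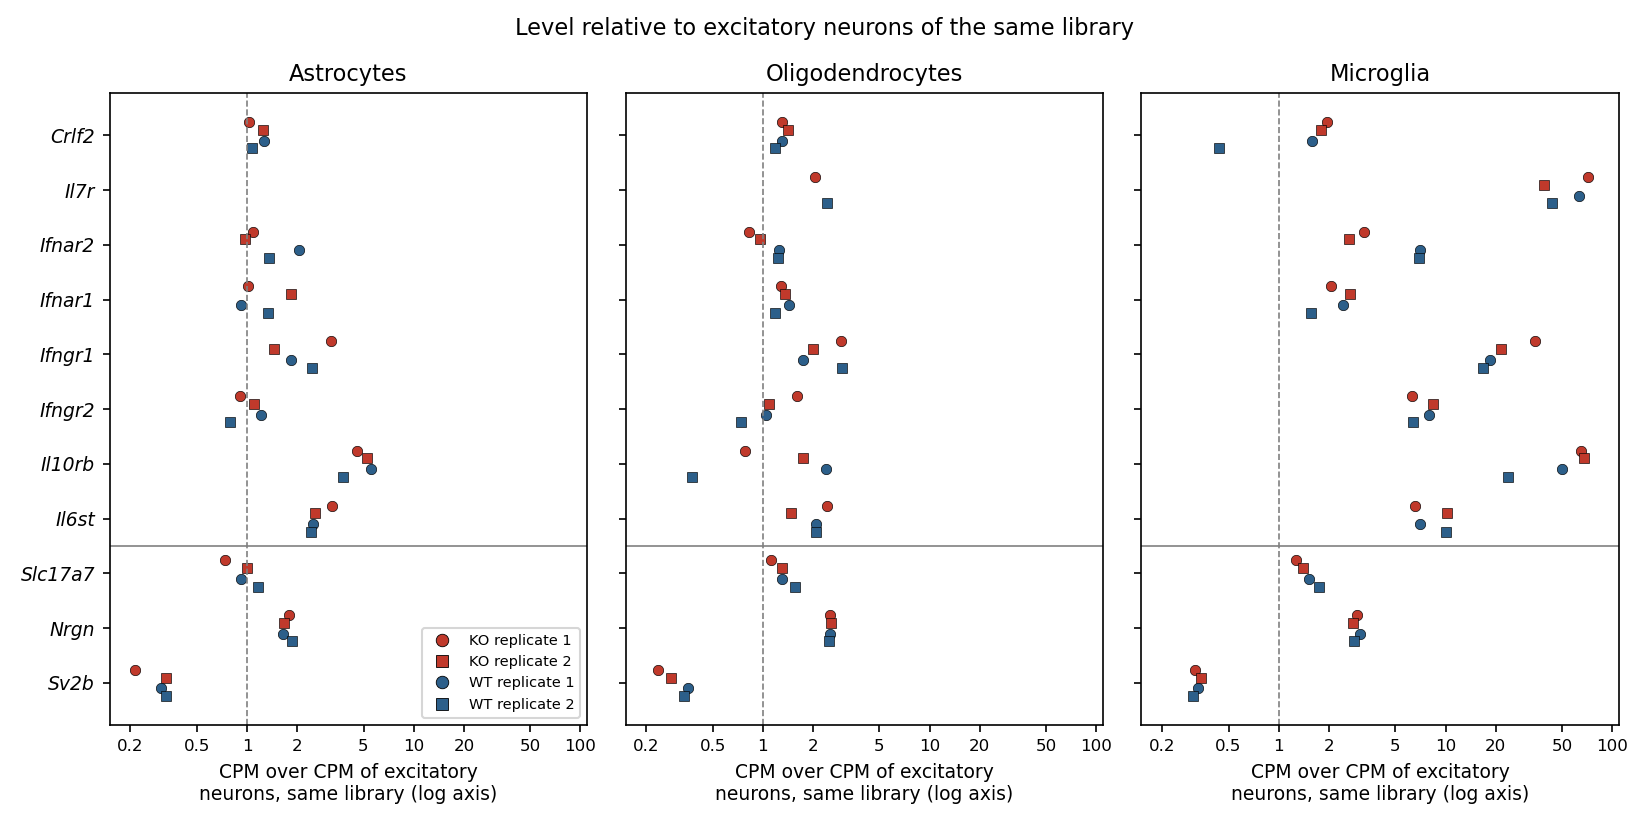
CPM in astrocytes, oligodendrocytes and microglia over CPM in excitatory neurons of the same library (log x axis; KO red, WT blue) for the 8 receptor genes and, below the line, 3 marker genes of excitatory neurons; zeros are not drawn. Crlf2 in glia of KO libraries (1.02 to 1.96) lies among the marker genes, while Il7r in microglia lies between 39.2 and 71.9.

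Markers of other classes were also read in the excitatory sums. The 6 microglia markers, all with UMIs, summed to 140 and 156 CPM in KO libraries and 112 and 124 CPM in WT libraries, and the 6 astrocyte markers to 404 and 376 CPM in KO and 486 and 497 CPM in WT. The 5 endothelial markers summed to 37.8 and 40.1 CPM in KO and 4.74 and 5.66 CPM in WT, of which the adhesion gene Pecam1 alone made up 35.7 and 37.0 CPM in KO and 3.14 and 3.91 CPM in WT, while the other 4 summed to 2.13 and 3.09 CPM in KO and 1.60 and 1.75 CPM in WT. No defining marker of these lists was at 0. The part of these markers in the Crlf2 and Ifnar2 differences was not tested. The microglial receptor genes Il7r and Il10rb themselves stood below 1.4 CPM in the excitatory sums of all 4 libraries.

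The rest of the pathway was followed in lists of ligands, partner chains, other class I receptors, kinases, inhibitors and target genes, chosen with earlier results of these data known. Of 22 ligand genes 4 had enough UMIs to be tested in excitatory neurons, and 0 passed. Over all nuclei Tslp, the ligand of the Crlf2 receptor, had 16 and 15 UMIs in KO libraries and 19 and 11 in WT libraries. Of the type I interferons in the list, Ifnb1, Ifna4 and Ifne had 0 UMIs in all 4 libraries. Ifnk had 3 and 5 UMIs in KO libraries and 5 and 9 in WT libraries. Of 13 partner chains 9 were tested, of the Janus kinases and STATs 11 of 12, and of the inhibitors 16 of 17, and 0 passed in each list in excitatory neurons. Their median log2 fold changes were -0.06, -0.03 and -0.04, against 0.004 over all genes tested.

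Of 24 other class I cytokine receptors 16 were tested in excitatory neurons, 2 rose and 0 fell, with a list median of -0.03. Csf2ra, the GM-CSF receptor alpha chain, had 55.5 and 67.8 CPM in KO libraries and 45.3 and 39.0 CPM in WT libraries (scaled with TMM factors), a log2 fold change of 0.55 ± 0.12 with an edgeR adjusted p of 0.042. It lost the threshold without KO replicate 2 (0.10) and without WT replicate 2 (0.081). Il13ra1, an interleukin 13 and 4 receptor chain, had 4.20 and 3.60 CPM in KO libraries and 2.17 and 1.54 CPM in WT libraries (1.07 ± 0.23, edgeR adjusted p = 0.034), and 0.067 without WT replicate 2.

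Among 24 type I interferon target genes, of which 22 were found in the files, 19 were tested in excitatory neurons, and 1 rose, with a list median of 0.45. It was Xaf1, an interferon-induced gene linked to cell death, with 10.6 and 17.97 CPM in KO libraries and 5.09 and 5.40 CPM in WT libraries (1.44 ± 0.23, edgeR adjusted p = 0.011). Xaf1 also rose in inhibitory neurons (1.49 ± 0.32, edgeR adjusted p = 0.026), the only one of 8 targets tested there, and lost the threshold without KO replicate 2 (0.18) and without WT replicate 2 (0.075). In astrocytes Oasl2, an antiviral oligoadenylate synthetase-like gene, was the only one of 7 to pass (edgeR adjusted p = 0.040). Oasl2 passed the filter on low counts only through the KO libraries, so this p is not read as support for a difference. It had 9 and 41 UMIs in KO libraries and 0 and 1 in WT libraries, a ratio of 71.0 with a counting interval of 12.2 to 2861, and 7 and 18 against 0 and 1 UMIs in cluster 13 alone. Without KO replicate 2 it was no longer tested among those past the filter. The list medians in the other classes were 0.47 in inhibitory neurons, 1.09 in astrocytes, 0.72 in oligodendrocytes and 1.29 in microglia (3 targets tested), where 0 passed in the last pair. The astrocyte median takes in Oasl2, and the part of the filter in the medians of these target genes was not tested. The KO libraries differed in these genes: over all nuclei each of the 22 targets found except Ifit2 had more CPM in KO replicate 2 than in KO replicate 1. Isg15 had 2.38 and 4.37 CPM in KO libraries and 2.15 and 2.95 CPM in WT libraries. Bst2 had 1.12 and 2.63 CPM in KO libraries and 0.374 and 0.499 CPM in WT libraries. The source of this difference between KO libraries was not tested.

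Of 22 interferon gamma targets 10 were tested in excitatory neurons and 0 passed, and 1 of 4 rose in microglia. That gene was Nlrc5, an activator of MHC class I genes. It had 13 and 16 UMIs in KO libraries and 1 and 0 in WT libraries. The ratio was 28.3 with a counting interval of 4.69 to 1156 (edgeR adjusted p = 0.032). Nlrc5 passed the filter on low counts only through the KO libraries, so this p is not read as support for a difference. It lost the threshold without KO replicate 1, without KO replicate 2 and without WT replicate 2. With 1 library left out its log2 fold change ran from 3.68 to 6.85. With DESeq2, or with only nuclei of at least 1000 UMIs, no gene passed in microglia. Of 14 targets of STAT3 and STAT5 11 were tested in excitatory neurons, with a list median of -0.39, and 1 rose. It was Gfap, an intermediate filament gene of astrocytes, with 1.90 and 2.57 CPM in KO libraries and 1.02 and 0.877 CPM in WT libraries (1.23 ± 0.27, edgeR adjusted p = 0.037). Gfap is also in the astrocyte marker list, and the part of captured astrocyte RNA in its counts here was not tested. Over all nuclei Gfap had 3.52 and 4.40 CPM in KO libraries and 2.19 and 1.92 CPM in WT libraries. It lost the threshold without KO replicate 2 (0.13) and without WT replicate 2 (0.053). Each of these counts stands beside the share of all genes that passed in the class, 4.66% in excitatory neurons, 1.24% in inhibitory neurons, 0.345% in astrocytes and 0.122% in microglia.

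The genes around both loci were followed in excitatory neurons, where 4.66% of all genes tested passed in either direction, and the counts of the 2 regions were not compared by a test. On chromosome 16 Ifnar2 is followed on the same strand by Il10rb (chr16:91406164-91425834), Ifnar1 (chr16:91485238-91507441) and Ifngr2 (chr16:91547072-91565623). The start of Il10rb lies 33.4 kb after that of Ifnar2. From 500 kb before Ifnar2 to 500 kb after Ifngr2 the annotation has 50 genes besides Ifnar2, with Il10rb, Ifnar1 and Ifngr2 among them, of which 26 were tested and 0 passed in either direction (edgeR). Their log2 fold changes ran from -0.71 to 0.54 with a median of 0.04. The nearest tested gene before Ifnar2 was Olig1, an oligodendrocyte lineage factor, at -0.16 ± 0.15 (edgeR adjusted p = 0.59). In the annotation a predicted gene, Gm21970, overlaps both Ifnar2 and Il10rb on the same strand, and it has no row of its own in the files, so reads of it could have been given to either.

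Around Crlf2, 7 of 24 annotated neighbours within 500 kb were tested, 2 rose and 0 fell, and all 7 estimates were positive, from 0.19 to 1.04 with a median of 0.81. The median over all genes tested was 0.004, and the share of all genes with a positive estimate was not counted. The nearest tested gene on one side was 5430403G16Rik, 132 kb away on the minus strand, with 6.64 and 8.47 CPM in KO libraries and 4.03 and 3.30 CPM in WT libraries (1.04 ± 0.18, edgeR adjusted p = 0.017). Next to it 4930522L14Rik rose by 0.81 ± 0.18 (edgeR adjusted p = 0.042), and it lost the threshold without KO replicate 2 (0.11) and without WT replicate 2 (0.10). On the other side the nearest tested gene was Vmn2r16, a vomeronasal receptor gene 229 kb away, at 0.57 ± 0.31 (adjusted p = 0.33). Among the alternatives tried, the lowest number of neighbours past the threshold was 0, so 5430403G16Rik also lost its call there. Crlf2 overlaps no annotated gene.

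**Figure D5:**
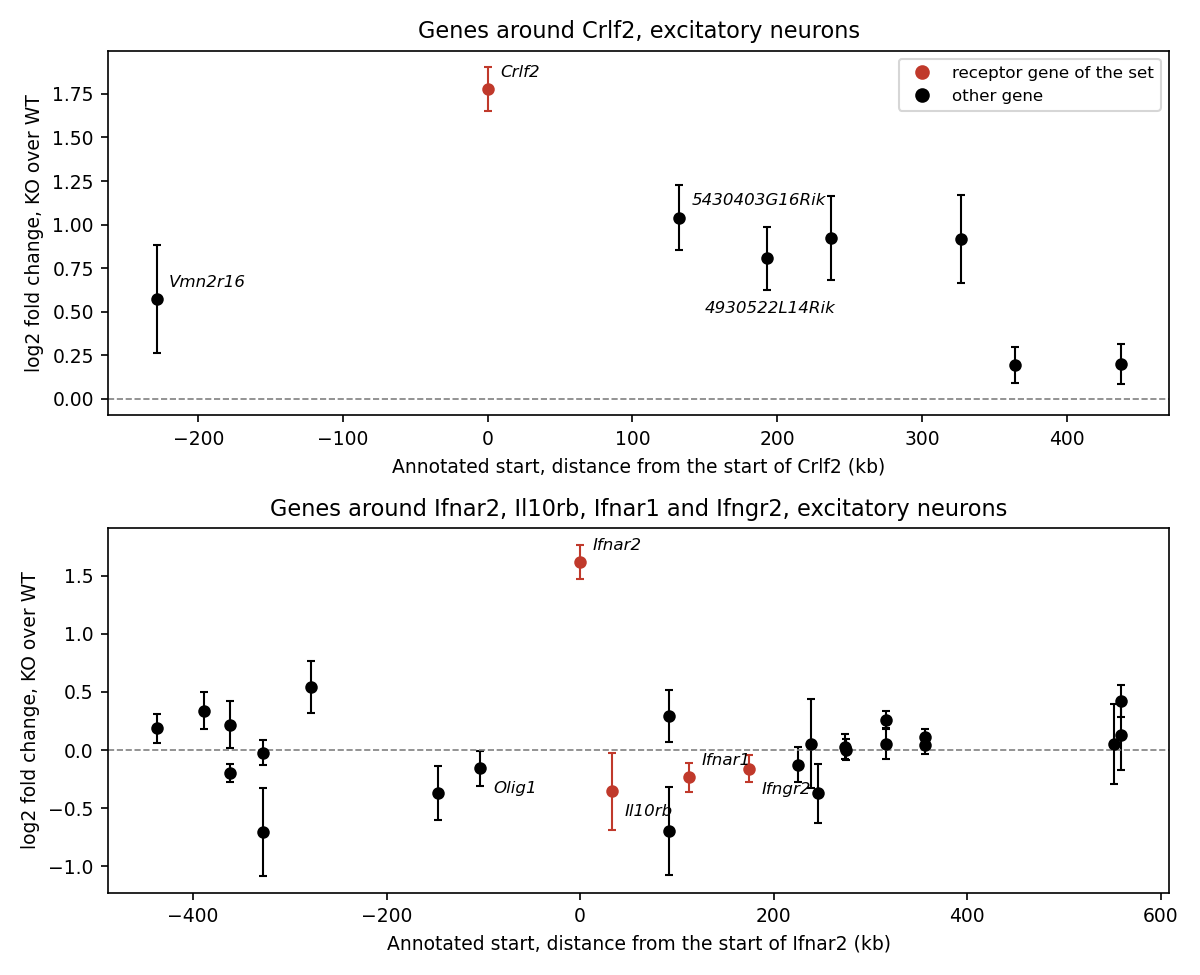
Log2 fold change of KO over WT in excitatory neurons (± SE) for tested genes by distance of their annotated start from that of Crlf2 (top) and Ifnar2 (bottom), with receptor genes of the set in red. All 7 tested neighbours of Crlf2 lie above 0, between 0.19 and 1.04, while those around Ifnar2 lie on both sides, between -0.71 and 0.54.

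The genes most like each receptor were ranked by Pearson correlation of log2(CPM + 1) over 36 sums (9 classes in 4 libraries), among 13661 genes with a mean of at least 5 CPM. These sums share libraries and differ in depth, so the values are a description. Il7r was closest to Parvg, Naip2 and Gcnt1 (r = 0.97, 0.96 and 0.94), and Il10rb to Arhgef1, Birc3 and Ucp2 (0.91, 0.87 and 0.83). Il6st was closest to Rrbp1, Rbm47 and Csf1r, the receptor for CSF1 on microglia (0.83, 0.82 and 0.81). Ifnar2 was closest to Zc3hav1, Hpcal1 and Msn (0.83, 0.81 and 0.81) and Ifnar1 to Rexo2, Lsm14a and Mlycd (0.85, 0.82 and 0.82). Ifngr1 had Capza1, Khdrbs1 and Tal1 (0.82, 0.82 and 0.78), and Ifngr2 had Safb2, Slc7a8 and Mrpl51 (0.83, 0.82 and 0.81). Crlf2 had the lowest top value of the set, with Gm11884, 2310067P03Rik and Bglap3 (0.74, 0.72 and 0.70).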

How the data were processed

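Nuclei were prepared by sucrose gradient ultracentrifugation and sequenced as 10x 3′ libraries, per the labels' protocols. Per the submitters' processing notes, the authors used Cell Ranger 7.1.0 and the mm10 build; the values deposited are unnormalized counts of UMIs for every gene in each barcode. Barcodes needed 500 UMIs or more, 300 genes or more and no more than 5% of UMIs from mitochondrial genes. Doublets called by Scrublet (4.14% to 5.11% per library) were left out, and nuclei were clustered with scanpy 1.11.5 (2000 variable genes, 30 components, Leiden resolution 1). Of 32 clusters 24 were named from marker lists, with naming thresholds set after the data were seen. Counts were summed per library and class and fitted with edgeR 4.0.16 in R 4.3.3 (filterByExpr with a minimum count of 10, TMM factors, quasi-likelihood test, Benjamini-Hochberg adjustment, threshold 0.05). DESeq2 1.42.0 was an alternative. edgeR's use was tested on simulated data. Replicates are separate animals, 2 per genotype, so p-values rest on few degrees of freedom. Replicate numbers were not used as pairs, since nothing in the labels ties same-numbered animals together; by their RNA they share sex across genotypes, so a replicate block is also a block for that sex, and it was run as an alternative.

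The members and all gene lists were chosen with earlier results of these data known. No p is given for Crlf2 and Ifnar2 between genotypes, which is stricter than the design first set down. All 8 members are described. From each pathway list the genes named passed the threshold in excitatory neurons, inhibitory neurons, astrocytes or microglia, at most 4 per list and class. For each member the 3 most correlated genes are named, and of the genomic neighbours those past the threshold and the nearest tested gene on either side of Crlf2 and Ifnar2. Gene positions come from GENCODE vM21 (GRCm38) and promoter windows from RefSeq (GRCm38.p6). Intervals and floors of 3 counts cover counting error only. CPM beside fits of pathway genes and neighbours are scaled with TMM factors, and other CPM are not.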

Additional observations from a re-analysis of the deposited data

Results flagged for a closer look

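The estimated genotype effect on Ifnar2 was smaller in each other large class than in excitatory neurons, in a joint fit with a library term. The log2 fold change of KO over WT minus that in excitatory neurons was -0.75 ± 0.24 in astrocytes and -0.44 ± 0.24 in oligodendrocytes. In oligodendrocyte precursors it was -1.05 ± 0.31. Inhibitory neurons, at -0.87 ± 0.17, and microglia, at -1.23 ± 0.22, were flagged from the same data that chose the gene. No p is therefore given, and none of these values is read as a test. In the separate class fits these differences ran over the alternatives from -1.03 to -0.60 for inhibitory neurons and from -1.38 to -1.08 for microglia. Ifnar2 was chosen on its difference in excitatory neurons, and such a choice by itself favours a larger value there than elsewhere.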

How the results depend on the processing

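The Crlf2 log2 fold change in excitatory neurons was 1.65 to 1.91 over all alternatives tried, and that of Ifnar2 was 1.38 to 1.82, the same ranges as with 1 library left out, with 1.38 without KO replicate 2. The alternatives in this section include a fit with the listed sex as a block, in which 602 genes passed in excitatory neurons. The listed sex goes against the RNA of both KO animals, so by RNA that block groups animals of unlike sex. Of 134 alternative values of these 2 genes over the classes, 120 moved by less than the spread between replicates and 14 by more. Crlf2 ran from 2.02 to 3.71 in microglia, 0.94 to 1.60 in inhibitory neurons, 1.52 to 1.96 in astrocytes and 1.58 to 2.09 in oligodendrocytes. Ifnar2 ran from 0.86 to 1.51 in oligodendrocytes, 0.52 to 1.04 in inhibitory neurons, 0.65 to 1.21 in astrocytes and 0.30 to 0.50 in microglia. Levels of WT microglia over WT excitatory neurons moved beyond the replicate spread in 14 of 32 alternatives, from 4.85 to 5.99 for Il7r, 4.57 to 5.65 for Il10rb and -1.19 to 0.66 for Crlf2. The number of genes changed in excitatory neurons, 891, was 310 with no filter on low counts and 760 to 2169 with 1 library left out (2169 without KO replicate 1). With the replicate number as a block it was 3741, and Crlf2 and Ifnar2 stood at 1.78 and 1.61; same-numbered libraries deviated together with r = 0.46 there, but 2 pairs do not establish pairing. Same-numbered animals share sex by their RNA, so this is also a block for that sex; under it 25 list genes and 8 neighbours passed in excitatory neurons, and every pathway gene and neighbour named as past the threshold kept its call. Over all alternatives the counts were 88 to 1070 in inhibitory neurons (179 in the fit reported), 22 to 430 in astrocytes (42), 1 to 570 in oligodendrocytes (63), 0 to 74 in oligodendrocyte precursors (2) and 0 to 288 in microglia (11). List genes past the threshold in excitatory neurons numbered 0 to 25 (4), and neighbours 0 to 8 (2).

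Of 253 alternative values of the other 6 receptor genes with an adjusted p, 234 kept direction and side of the threshold and 19 changed sign. None passed, and values to which DESeq2 gave no adjusted p are not counted. With 1 library left out, log2 fold changes ran from -0.67 to 0.022 for Il10rb in excitatory neurons. In inhibitory neurons they ran from -0.16 to 0.042 for Ifngr2 and -0.27 to 0.12 for Il6st. In astrocytes they ran from -0.30 to 0.39 for Ifnar1, -0.40 to 0.16 for Ifngr2 and -0.16 to 0.13 for Il6st. In oligodendrocytes they ran from -0.33 to 0.32 for Ifngr1, and in precursors from -0.37 to 0.087 for Il6st. In microglia they ran from -0.26 to 0.38 for Ifnar1, -0.27 to 0.065 for Ifngr2 and -0.62 to 0.097 for Il6st. With only nuclei of at least 1000 UMIs, Il6st in astrocytes was 0.045 and Ifnar1 in oligodendrocytes 0.15. Of 117 alternative values of the named pathway and neighbour genes, 92 kept their side of the threshold and 25 lost the call, with the direction kept. The 92 include the values of Vmn2r16 and Olig1, which had not passed in the fit reported and so had no call to lose. The astrocyte values for cluster 13 alone were chosen after seeing the data. The cause of these changes was not tested.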
